A study of Mus musculus with 4 samples.

Results

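Gdf9 and Bmp15, the genes of a pair of growth factors that the oocyte secretes, were described in sections of young and aged mouse ovary. They were chosen by name and make 2 of the 32285 genes of the count tables. Both belong to the TGF-beta family of ligands, are made in the ovary by the growing oocyte, and act on the granulosa cells that surround it. There they bind the type II receptor BMPR2 together with a type I receptor, TGFBR1 for GDF9 and BMPR1B for BMP15, and the signal reaches the nucleus through Smad proteins. The pair is best known for carrying follicles past their early stages and for setting how cumulus cells, the granulosa cells next to the oocyte, feed it and later expand.

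The study measured ovaries with Visium, in which RNA released from a frozen section is caught on a grid of barcoded spots, and counted it as unique molecules (UMIs). Each of 4 capture areas carried a young and an aged section side by side, so there were 8 sections, numbered here by capture area, from 4 young and 4 aged animals. The young group was 3 to 4 months old and the aged group 15 to 16 months old. All were outbred CD-1 females left to age naturally, no genotype or treatment set the groups apart, and each animal is represented by a single slice. A spot can hold several cells, and spots of a section share its RNA, so that sections and not spots were the replicates. Where a section holds less Gdf9 or Bmp15, fewer oocytes in the slice and less RNA per oocyte cannot be told apart.

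Gdf9 lies on chromosome 11 at 53431023 to 53437904 on the plus strand and Bmp15 on the X chromosome at 6314107 to 6320721 on the minus strand (build mm10, GENCODE M21). Gdf9 is annotated with 3 transcripts, of at most 3 exons, and Bmp15 with 1 transcript of 2 exons. No annotated gene overlaps either of them, and the nearest to Gdf9, Uqcrq of the respiratory chain, lies 191 bases away on the other strand. The promoter of Bmp15 is shown because the genes of the oocyte transcription factors NOBOX and LHX8, which are homeodomain proteins, and FIGLA, which binds E-boxes, were read beside Bmp15 in the same spots. It covers chrX:6320725-6320974 on the minus strand (RefSeq, GRCm38.p6) and is written 5′ to 3′ up to the base before the annotated start of transcription, with the homeodomain core TAATTA in capitals.
Bmp15 promoter: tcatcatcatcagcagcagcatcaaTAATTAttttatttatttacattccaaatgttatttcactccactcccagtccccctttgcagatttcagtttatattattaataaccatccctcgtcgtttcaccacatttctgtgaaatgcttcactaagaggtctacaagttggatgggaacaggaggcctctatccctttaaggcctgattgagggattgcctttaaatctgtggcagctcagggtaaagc
TAATTA, which reads the same on both strands, lay 225 to 220 bases before the start, and 4.84% of the 32851 promoters of the table hold it in the 250 bases before their start, searched on both strands. An E-box of the form CANNTG was found as CAAATG, 201 to 196 bases before the start. A CANNTG of any kind stands in 66.2% of these promoters. The variants TAATTG and TAGTTG were not found in this window on either strand. The promoter table matched 1 of the 2 genes. Gdf9 is named only.

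Sections held 532, 730, 542 and 762 spots in young section 1 to 4 and 299, 653, 257 and 416 in aged section 1 to 4. The median spot held 14988.5 to 28120 UMIs in young and 8779 to 14927.5 UMIs in aged sections. Gdf9 was counted 1721 times in 580 of the 4191 spots and Bmp15 369 times in 204 spots, and 654 spots held at least 1 UMI of either. The labelled organ was checked on marker lists: the summed CPM (a gene's UMIs scaled by the UMI total of its section) of 25 oocyte genes lay at 101 to 859, and granulosa and luteal markers were present in every zone described here. Capture area 3 ran against the others in both genes, and a stained image turned against the labelled sides would exchange its ages, which the files cannot show. Differences between ages are given with and without it. Capture areas use the same array, so that 3345 spot barcodes recur between areas without marking the same cells.

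Gdf9 was high in 4 sections and low in 4, and age did not divide them. Its level was 54.9 CPM (95% Poisson interval 50.7 to 59.4) in young section 1, 20.6 (18.8 to 22.6) in young section 2, 4.64 (3.38 to 6.21) in young section 3 and 17.1 (15.2 to 19.2) in young section 4. In aged sections it was 2.57 CPM (1.37 to 4.39) in section 1, 5.26 (3.90 to 6.93) in section 2, 80.3 (70.1 to 91.5) in section 3 and 3.16 (2.04 to 4.66) in section 4. The order ran from aged section 1 through aged section 4, young section 3 and aged section 2 to young sections 4, 2 and 1 and aged section 3. In that order the counting intervals of neighbours overlapped among the lowest 4 and between young sections 4 and 2, and did not overlap between any other neighbours. These intervals cover counting error only.

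Bmp15 followed the same high and low sections. Its level was 11.2 CPM (9.34 to 13.3) in young section 1, 3.93 (3.14 to 4.86) in young section 2, 0.515 (0.167 to 1.2) in young section 3, where 5 UMIs were counted, and 3.18 (2.40 to 4.14) in young section 4. The aged sections stood at 0.197 CPM (0.00500 to 1.10), from a single UMI, 1.26 (0.652 to 2.2), 28.4 (22.5 to 35.4) and 0.632 (0.205 to 1.47). Aged section 3 was the highest of all 8 for both genes, while the other aged sections lay among the lowest. Within a capture area the aged section was lower than its young partner in 3 of 4 areas for both genes, and higher in area 3. With the sections in 2 separate sets of 4, the relation between the genes over sections was not tested.

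**Figure D1:**
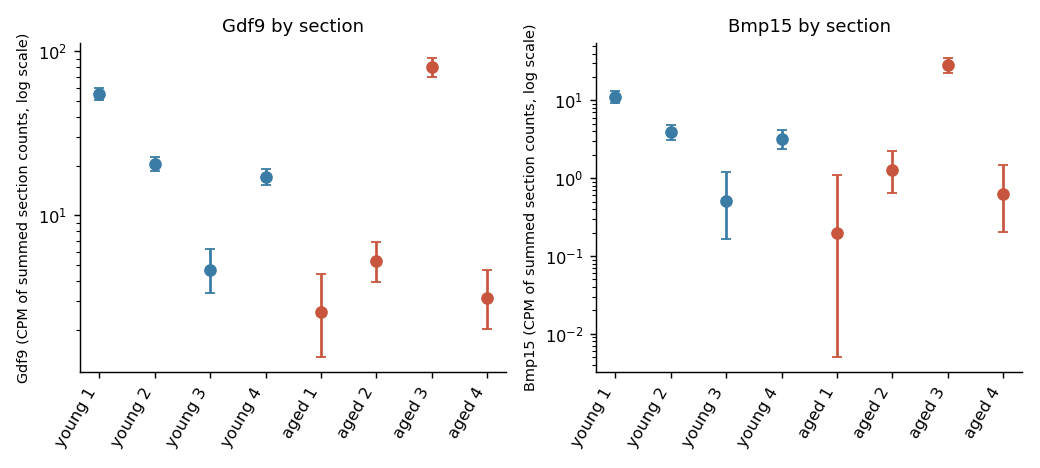
Gdf9 (left) and Bmp15 (right) in each section, as CPM of counts summed over the section on a log axis, young in blue and aged in red. Bars are 95% Poisson intervals of the count; aged section 3 is the highest for both genes (80.3 and 28.4 CPM), and young section 3 stands with the low aged sections.

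Whether the genes change with age was asked over the 8 sections. The mean Gdf9 level was 24.3 ± 21.5 CPM (SD, n = 4) in young and 22.8 ± 38.3 CPM in aged sections. For Bmp15 the means were 4.71 ± 4.57 and 7.63 ± 13.9 CPM. The log2 fold change, aged over young, was −0.36 ± 1.07 (SE) for Gdf9 and 0.38 ± 1.26 for Bmp15 (edgeR quasi-likelihood test, adjusted p = 1.00 for each over 14044 genes). Neither difference exceeded the spread between sections. In this comparison 0% of all genes were called, with 392 at an unadjusted p under 0.05, a lowest adjusted p of 0.823, and 6 genes called by DESeq2. Without capture area 3 the log2 fold changes were −2.96 for Gdf9 (adjusted p = 0.189) and −2.91 for Bmp15 (adjusted p = 0.275), and without young section 1 they were 0.41 and 1.23. With the capture area as a block, Gdf9 stood at −1.57 and Bmp15 turned to −1.28 (adjusted p = 1.00).

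The share of spots with a UMI gave the same picture. Gdf9 was detected in 32.9, 19.2, 7.01 and 12.5% of spots in young sections 1 to 4 and in 4.35, 4.13, 30.0 and 3.61% in aged sections 1 to 4. For Bmp15 the shares were 12.0, 6.03, 0.738 and 3.81% in young and 0.334, 1.38, 19.1 and 0.962% in aged sections. After thinning every spot to 5000 UMIs, which left out 4 to 122 shallower spots per section, Gdf9 was found in 3.43 to 13.4% of young and 0.356 to 19.5% of aged spots. Both ages overlapped on every one of these measures. The mean share was 17.9 ± 11.2% against 10.5 ± 13.0% for Gdf9 and 5.65 ± 4.77% against 5.44 ± 9.10% for Bmp15 (SD, n = 4 per age). Two-sided exact permutation tests gave p = 0.371 and 0.971, and adjusted p = 1 for each of the 9 measures tested together. Without capture area 3 the difference, aged minus young, was −17.5 percentage points for Gdf9 and −6.40 for Bmp15 (exact permutation p = 0.1 for each, the smallest that 3 against 3 allow, adjusted p = 0.15). The smallest p that 4 against 4 sections allow is 0.0286.

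The balance of the 2 genes overlapped between ages and was shifted toward Bmp15 in aged section 3. Gdf9 UMIs per Bmp15 UMI were 4.91, 5.25, 9 and 5.38 in young sections 1 to 4 and 13, 4.17, 2.82 and 5 in aged sections 1 to 4. These ratios are not scaled for transcript length, so they are read between sections and not as relative amounts of the 2 transcripts. The highest values rest on 5 and 1 Bmp15 UMIs, in young section 3 and aged section 1. Among sections with at least 50 UMIs of each gene, Bmp15 made 16.9% of the UMIs of the pair (95% Clopper-Pearson interval 14.3 to 19.8) in young section 1, 16.0% (13.0 to 19.4) in young section 2 and 15.7% (12.0 to 19.9) in young section 4. In aged section 3 it made 26.2% (21.3 to 31.5), above the intervals of these 3 young sections. Between ages the log2 ratio differed by −0.18 (2.57 ± 0.40 in young, 2.39 ± 0.94 in aged sections, SD, n = 4; exact permutation p = 0.771, adjusted p = 1), and by 0.32 without capture area 3.

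Levels were also set against other oocyte RNA, the summed UMIs of the 25 measured genes of the oocyte list, so that the amount of oocyte in a slice is taken out. Gdf9 UMIs per 100 UMIs of the list were 6.40, 6.33, 4.05 and 4.56 in young sections 1 to 4 and 1.79, 5.02, 9.89 and 3.13 in aged sections 1 to 4. Bmp15 stood at 1.30, 1.21, 0.450 and 0.847 in young and 0.138, 1.2, 3.50 and 0.625 in aged sections. The log2 difference, aged minus young, was −0.36 for Gdf9 (exact permutation p = 0.571, adjusted p = 1) and −0.18 for Bmp15 (p = 0.857, adjusted p = 1). Without capture area 3 these were −0.91 and −1.23 (exact permutation p = 0.2 for each, adjusted p = 0.225). Tle6 and Kit, which are also read outside oocytes, made 10.8 to 59.9% of the list by section. Without them Gdf9 stood at 5.63 to 9.11 per 100 UMIs in young and 4.47 to 11.5 in aged sections, and the log2 differences were −0.01 and 0.16.

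In the spots that hold at least 2 UMIs of the pair, the log2 level against the oocyte list was −3.67, −3.34, −3.86 and −3.70 for Gdf9 in young sections 1 to 4 and −2.85, −2.84 and −3.06 in aged sections 2 to 4. For Bmp15 it was −6.00, −5.67, −5.98 and −6.27 in young and −4.95, −4.44 and −5.06 in the same aged sections. These are a description with no test: the spots were picked by the UMIs of the genes themselves, the aged sections had fewer UMIs per spot, and aged section 1 had no such spot.

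The spots richest in Gdf9 mostly held Bmp15, while most spots with either gene held that one alone: 130 of 654 held both. Of the 580 spots with any Gdf9 22.4% held Bmp15, and of the 204 spots with any Bmp15 63.7% held Gdf9. Bmp15 was detected in 2.05% (74) of the 3611 spots without a Gdf9 UMI (95% Clopper-Pearson interval 1.61 to 2.57), in 7.84% (5.27 to 11.1) of those with 1, in 32.7% (25.3 to 40.7) of those with 2 to 4, in 65.7% (47.8 to 80.9) of those with 5 to 9 and in 82.9% (66.4 to 93.4) of those with 10 or more. The 35 spots of the last class held 42.1% of all Gdf9 and 41.5% of all Bmp15 UMIs. Their median depth was 27341 UMIs against 17004 in spots without Gdf9, and their median count of oocyte list UMIs was 217 against 2. By section, Bmp15 was found in 25.1, 21.4, 5.26 and 14.7% of the Gdf9 spots of young sections 1 to 4 and in 0, 14.8, 44.2 and 13.3% of those of aged sections 1 to 4. In every section but aged section 1, where 13 spots held Gdf9 and 0 of them Bmp15, this share was above that in the spots without Gdf9 (0.397 to 8.33%).

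**Figure D2:**
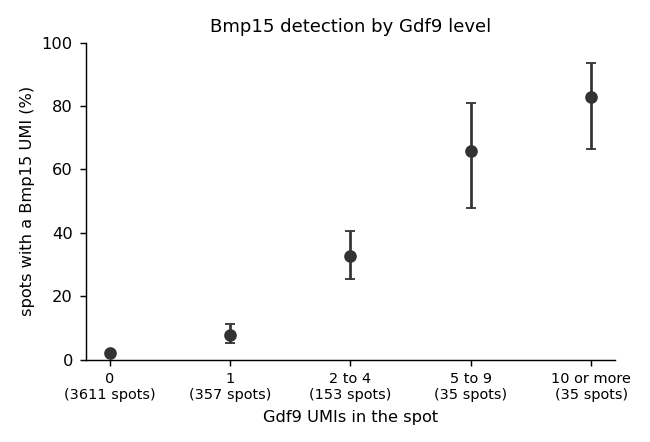
Share of spots with at least 1 Bmp15 UMI (%) by the number of Gdf9 UMIs in the spot, over the spots of all 8 sections, with 95% Clopper-Pearson intervals of counting error. The share goes from 2.05% in spots without Gdf9 to 82.9% in spots with 10 or more Gdf9 UMIs.

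UMIs of the pair were also found away from its richer spots. Of the 2673 spots at least 3 spot spacings away from every spot with 2 or more UMIs of the pair, 4.34% held a Gdf9 UMI (3.6 to 5.18) and 0.860% a Bmp15 UMI (0.546 to 1.29). In the 423 spots in the top 10% of their section for luteal genes, a tissue that should lack both, the shares were 7.57% and 1.65%, at a median depth of 25837 UMIs against 16645. By section, the luteal-high spots held Gdf9 in 14.8, 12.3, 10.9 and 2.60% (young sections 1 to 4) and in 3.33, 1.52, 11.5 and 4.76% (aged sections 1 to 4), and Bmp15 in 0% outside young section 1 (9.26%) and aged section 3 (7.69%). The overall Gdf9 share was below the section's own luteal share in young section 3 (7.01%) and aged section 4 (3.61%). These luteal shares rest on 6 of 55 spots (interval 4.11 to 22.2%) and 2 of 42 (0.582 to 16.2%), too few to set a background level. Aged section 4 also held 12 Gdf9 and 3 Bmp15 UMIs in 2 touching spots. The overall share was above the luteal share in the other 6 sections, with 1 luteal-high spot holding Gdf9 in each of aged sections 1 and 2. Spots with a single Gdf9 UMI held a median of 5 oocyte list UMIs, against 2 in spots without Gdf9.

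Spots with at least 2 UMIs of the pair formed 72 patches of touching spots. Young sections 1 to 4 held 26, 19, 5 and 12 patches and aged sections 1 to 4 held 0, 2, 7 and 1, and 42 patches were a single spot. The patches held 80.8% of all UMIs of the pair. The 21 patches with at least 20 UMIs, 17 in young and 4 in aged sections, covered 1 to 35 spots (median 5) and 22 to 195 UMIs (median 53). Bmp15 was present in all 21, at 3.85 to 44.4% of the UMIs of the pair (median 17.6%). The patch with the most UMIs lay in young section 1, with 164 Gdf9 and 31 Bmp15 UMIs in 14 spots, and the widest lay in aged section 3, with 131 and 44 UMIs in 35 spots. A patch can hold more than 1 oocyte, and no count of oocytes was made from them.

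**Figure D3:**
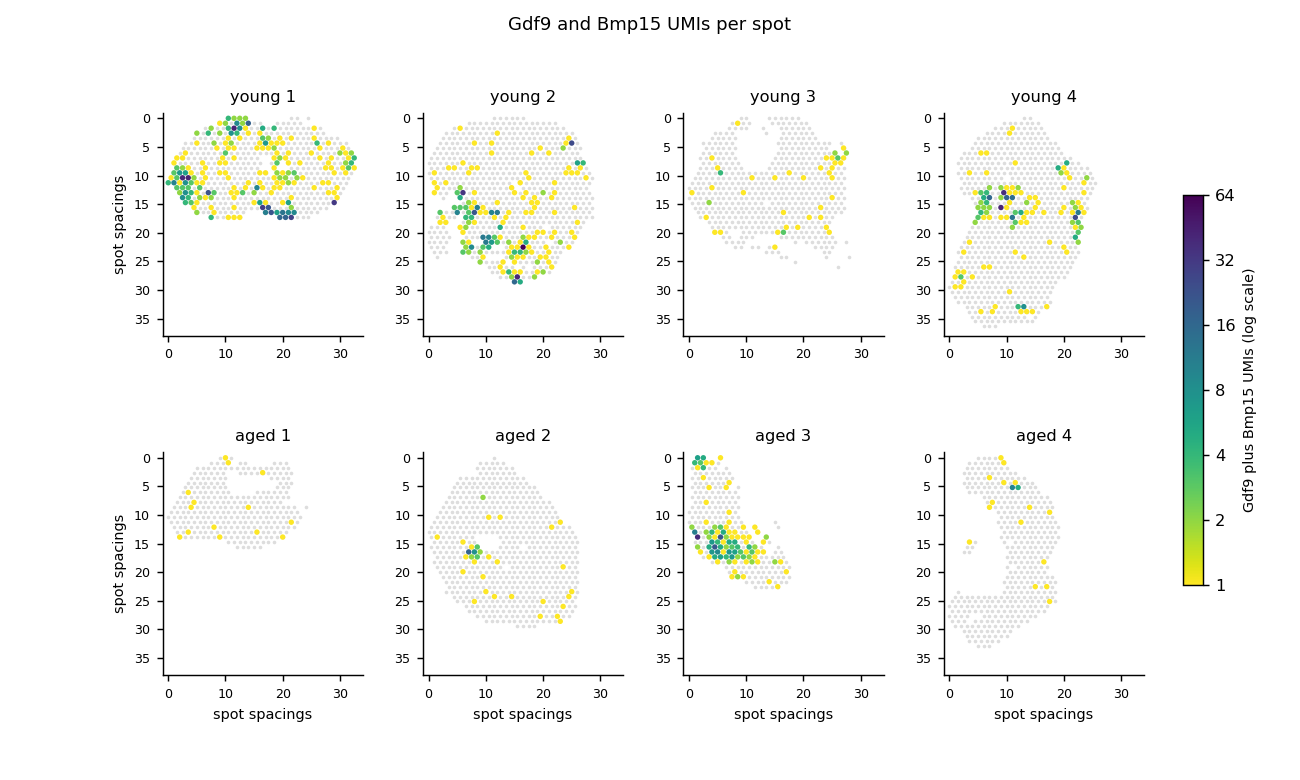
Gdf9 plus Bmp15 UMIs in each spot of the 8 sections, coloured on a log scale, with spots without either gene in grey and both axes in spot spacings. Young sections 1, 2 and 4 and aged section 3 show patches of high spots, and aged section 1 shows scattered single UMIs.

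Patches lay nearer the rim of the tissue than other spots in the young sections and aged section 2, and farther from it in aged section 3; this was not tested. The median distance to the nearest edge, for spots with at least 2 UMIs of the pair against the other spots, was 1.00 against 1.73 spacings in young sections 1 and 2, 0.50 against 1.73 in young section 3 and 1.73 against 2.65 in young section 4. It was 1.00 against 1.73 in aged section 2 and 1.73 against 1.00 in aged section 3. An edge spot was one with fewer than 6 neighbours, holes in the tissue included, and the other 2 aged sections had 0 and 2 spots of the pair.

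Each gene was then read around spots chosen by the other. Around spots with at least 2 Gdf9 UMIs, Bmp15 in the touching spots (up to 1.2 spacings) stood at 7.25, 2.67, 0 and 5.66 CPM in young sections 1 to 4 and at 7.26 and 27.1 CPM in aged sections 2 and 3. At 3 or more spacings it stood at 1.38, 0.337, 0.556 and 0.473 CPM in the same young sections and at 0.482 and 5.50 CPM in the same aged sections. Bmp15 was higher in touching spots in 5 of 6 sections, young section 3 with 5 Gdf9 spots being the exception. The mean log2 ratio, with 1 CPM added, was 1.56 ± 1.13 (SD, n = 6; exact sign-flip permutation test, two-sided, p = 0.0625, adjusted p = 0.125, the smallest raw p being 0.0312).

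Around spots with at least 2 Bmp15 UMIs, Gdf9 in the touching spots stood at 123, 77.6 and 41.3 CPM in young sections 1, 2 and 4 and at 114.5 CPM in aged section 3. Away from them it stood at 15.8, 5.89, 5.86 and 13.2 CPM. The touching level was higher in 4 of 4 sections, by 3.01 ± 0.37 on the log2 scale (SD, n = 4; exact sign-flip permutation p = 0.125, adjusted p = 0.125, the smallest that 4 sections allow). Neither comparison passed the threshold.

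**Figure D4:**
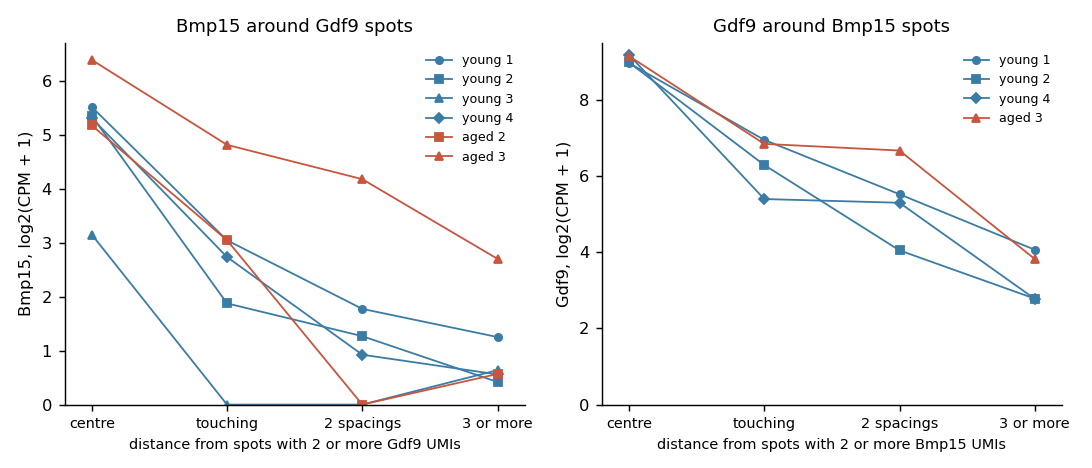
Bmp15 around spots with 2 or more Gdf9 UMIs (left, 6 sections) and Gdf9 around spots with 2 or more Bmp15 UMIs (right, 4 sections), as log2(CPM + 1) by distance from those spots, 1 line per section, young in blue and aged in red. The touching level exceeds the level at 3 or more spacings in 5 of 6 and 4 of 4 sections.

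The genes whose spot pattern was most like theirs were oocyte genes. Pearson correlations were taken over the 4191 spots, on log values per 10000 UMIs centred within each section, for 15046 genes found in at least 50 spots, and are a description, since spots share a library and depth. The highest for Gdf9 were Ooep (0.65), of the oocyte's subcortical complex, Elobl (0.63) and H1foo (0.63), the oocyte linker histone, followed by Fbxw24, E330017A01Rik, Zar1, Nlrp14, Gm13023, Npm2 and Khdc3 (0.59). For Bmp15 they were Elobl (0.55), Gdf9 (0.52), Gm13023, E330021D16Rik, H1foo, Fbxw26, E330034G19Rik, Bcl2l10, Npm2 and Oas1e (0.47). Bmp15 came at place 26 for Gdf9. Among oocyte transcription factors, Nobox stood at 0.43 with Gdf9 and 0.33 with Bmp15, Lhx8 at 0.30 and 0.31, Figla at 0.27 and 0.19 and Sohlh1 at 0.11 and 0.05. Several of these genes, such as the Gm, Fbxw and E330 members, belong to families of near copies whose counts are uncertain.

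To describe the tissue in which the pair is read, spots were sorted by their own Gdf9 and Bmp15 UMIs into those holding the pair (at least 2 UMIs together), adjacent spots (0 UMIs, up to 1.2 spacings from a holding spot) and distant spots (0 UMIs, at least 3 spacings away). The counts of each zone were summed per section and fitted with the section as a factor. All 4 young sections and aged sections 2 and 3 had enough spots, with 6 to 90 holding, 13 to 98 adjacent and 66 to 558 distant spots. The levels of Gdf9 and Bmp15 themselves are fixed by this sorting and are no result. Both contrasts share the distant spots. Median depth in the 6 sections was 13081 to 31381 UMIs in holding, 5068 to 25382.5 in adjacent and 8822.5 to 29681 in distant spots. A fit on spots thinned to 5000 UMIs called fewer genes, and its values are given where it changed the call of a named gene.

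Spots holding the pair were rich in oocyte and granulosa transcripts and poor in luteal ones. Among 12137 genes, 20.5% were called between holding and distant spots (edgeR quasi-likelihood test, Benjamini-Hochberg adjusted p under 0.05), 10.3% higher and 10.2% lower. Of 21 tested oocyte markers 20 were higher (median log2 fold change 4.88, against −0.02 for all genes). Of 16 granulosa markers 12 were higher (median 1.18), and of 8 luteal markers 6 were lower (median −1.24). The summed luteal list stood at 7167 to 31192 CPM in holding and 27505 to 38450 CPM in distant spots, and the granulosa list at 2985 to 11942 and 1235 to 3525 CPM. The part of this mix of cells in the values of the genes below was not tested. Of the 33 called genes named for this contrast, 25 kept their calls in every fit that left a section out and tested them. Sohlh1 was tested in 3 of these 6 fits, Figla in 4, and Amh and Tmem212 in 5. Calls were kept by 16 of the 33 when spots with a single UMI also counted as holding the pair. That rule also dropped aged section 3 and took in aged sections 1 and 4. With it Amh was not tested, and the calls of Bmpr1b, Amhr2, Acvrl1, Inhbb, Tgfb2, Furin, Id1, Npr2, Slc38a3, Ldha, Fdps, Ebp, Star, Cyp11a1, Hsd11b1 and Spp1 ended. Among called genes with at least 10 CPM on average over the zones, the most raised other than the pair were Trim61 (6.75), Ninj2 (6.53), Gm13023 (6.50), Fbxw24 (6.39) and C87977 (6.35), and the most reduced were Tmem212 (−2.73), Dynlrb2 (−2.46), Hsd11b1 (−2.45), which interconverts glucocorticoids, Spp1 (−2.08) and Plekhg4 (−1.94). Dynlrb2 lost its call without young section 2 (adjusted p = 0.432), and in DESeq2 neither it (0.393) nor Tmem212 (0.109) passed. With distant spots at least 5 spacings away, the calls of Ldha (adjusted p = 0.0878), Acvrl1 (0.0930), Bmpr1b (0.132), Ebp (0.160), Npr2 (0.209) and Slc38a3 (0.234) ended. With 4 UMIs needed to hold the pair, that of Ldha ended (adjusted p = 0.107). Without capture area 3, which leaves 4 sections, the calls of Bmpr1b (adjusted p = 0.106), Inhbb (0.123), Npr2 (0.163), Ldha (0.326) and Acvrl1 (0.0669) ended and Smad3 gained one (0.00335).

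Of the receptors of the pair and its relatives, 2 of 11 tested were higher, 1 was lower and 8 did not pass, beside 10.3% higher and 10.2% lower of all genes. Bmpr1b, the type I receptor of BMP15, stood at 48.5, 31.4, 101 and 20.0 CPM in holding spots of young sections 1 to 4 and at 0 and 57.4 CPM in those of aged sections 2 and 3. Distant spots held 18.7, 19.3, 17.9 and 19.4 CPM in the young and 8.84 and 48.0 CPM in the aged sections. Bmpr1b was higher in 5 of 6 sections (log2 fold change 0.77 ± 0.25, SE, adjusted p = 0.0324), and the call ended without any of young sections 1, 2 and 3 or aged section 3 (adjusted p up to 0.157). Amhr2, the receptor of anti-Müllerian hormone, rose by 1.03 ± 0.23 (adjusted p = 0.00222), with 135 to 337 CPM in holding and 74.1 to 138 CPM in distant spots. Acvrl1, an endothelial receptor, was lower (−0.53 ± 0.19, adjusted p = 0.0465), a call that ended when any of the 6 sections was left out and after thinning (adjusted p = 0.491).

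Bmpr2, the type II receptor of both factors, stood at 115, 108, 291 and 73.9 CPM in holding spots of young sections 1 to 4 and at 58.0 and 224 CPM in aged sections 2 and 3. Its distant levels were 95, 81.4, 104 and 94.8 CPM and 60.8 and 202 CPM. It was higher in 4 of 6 sections and did not pass (0.32 ± 0.16, adjusted p = 0.164). Tgfbr1, the type I receptor of GDF9, was at 43.9 to 115 CPM in holding and 54.2 to 261 CPM in distant spots (−0.41 ± 0.21, adjusted p = 0.176, and 0.0264 with no filter on low counts). The receptors of the pair were thus read in distant tissue as well.

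No Smad gene of 8 tested passed, beside 20.5% of all genes called in either direction. Smad3, which carries the GDF9 signal with Smad2, was higher in 5 of 6 sections, at 47.4 to 75.3 CPM in holding and 34.9 to 50.2 CPM in distant spots outside aged section 3, where it was lower (34.2 against 83.2 CPM). Its log2 fold change was 0.42 ± 0.18 (adjusted p = 0.118), and 0.65 without aged section 3 (adjusted p = 0.00412). It also passed with at least 4 UMIs (0.73, adjusted p = 0.0345), where young section 3 and aged section 2 dropped out, and after thinning (0.70, adjusted p = 0.0372). The others stood at −0.21 ± 0.17 (Smad2), −0.25 ± 0.25 (Smad1), 0.01 ± 0.13 (Smad5), −0.04 ± 0.15 (Smad4) and −0.78 ± 0.45 (Smad9). The median of the list was −0.11.

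Among other ligands of the family, 4 of 14 tested were higher in holding spots and 0 were lower, beside 10.3% and 10.2% of all genes, and 3 of the 4 are products of granulosa cells. Amh, anti-Müllerian hormone of small growing follicles, stood at 3.77, 4.96, 0 and 6.99 CPM in holding spots of young sections 1 to 4 and at 15.8 and 27.3 CPM in aged sections 2 and 3. Distant spots held at most 0.645 CPM in any section. The holding spots of aged section 2 held 189708 UMIs in all, so that its Amh level rests on few Amh UMIs. Amh rose by 3.64 ± 0.53 on the log2 scale (adjusted p = 5.54e-05), and young section 3 had none in either zone. Inha, the inhibin alpha subunit, was higher in 6 of 6 sections, at 1933 to 5981 CPM against 677 to 2121 CPM (1.45 ± 0.26, adjusted p = 0.000359). Inhbb, an activin and inhibin subunit, was higher in 5 of 6 sections by 1.79 ± 0.53 (adjusted p = 0.0199), with 1556 CPM in the 6 holding spots of young section 3 and 12.0 against 25.7 CPM in young section 4. Its call ended without young section 1 (adjusted p = 0.0647), without young section 3 (0.92, adjusted p = 0.0767), without capture area 3 (0.91, adjusted p = 0.123) and in DESeq2 (adjusted p = 0.0728). Tgfb2 rose by 1.45 ± 0.29 (adjusted p = 0.00105) and was higher in 5 of 6 sections, but did not pass after thinning (adjusted p = 0.0647).

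Of 9 inhibitors of the family read here, 1 was higher, beside 10.3% of all genes, and 8 did not pass. Fst, follistatin, which binds activin, stood at 105, 97.5, 575 and 41.0 CPM in holding spots of young sections 1 to 4 and at 73.8 and 301 CPM in aged sections 2 and 3, against 16.4 to 141 CPM in distant spots. It was higher in 5 of 6 sections (1.48 ± 0.29, adjusted p = 0.000752). Grem1, a secreted BMP antagonist, stood at 0.01 ± 0.49 (adjusted p = 0.995).

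Of 4 convertases, proteases that cut family precursors into active ligands, 1 was higher, 1 was lower and 2 did not pass. Of all genes 10.3% were higher and 10.2% lower. Pcsk6 was higher in 6 of 6 sections, at 62.8, 70.5, 67.7 and 89.9 CPM in holding spots of young sections 1 to 4 and 84.3 and 23.2 CPM in aged sections 2 and 3, against 19.8 to 29.7 CPM in distant spots (1.31 ± 0.18, adjusted p = 1.46e-05). Furin was lower in 6 of 6 sections, at 56.7 to 135 CPM against 76.0 to 179 CPM (−0.60 ± 0.12, adjusted p = 0.00121). Pcsk5 (0.25 ± 0.21) and Pcsk7 (−0.33 ± 0.19) did not pass.

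**Figure D5:**
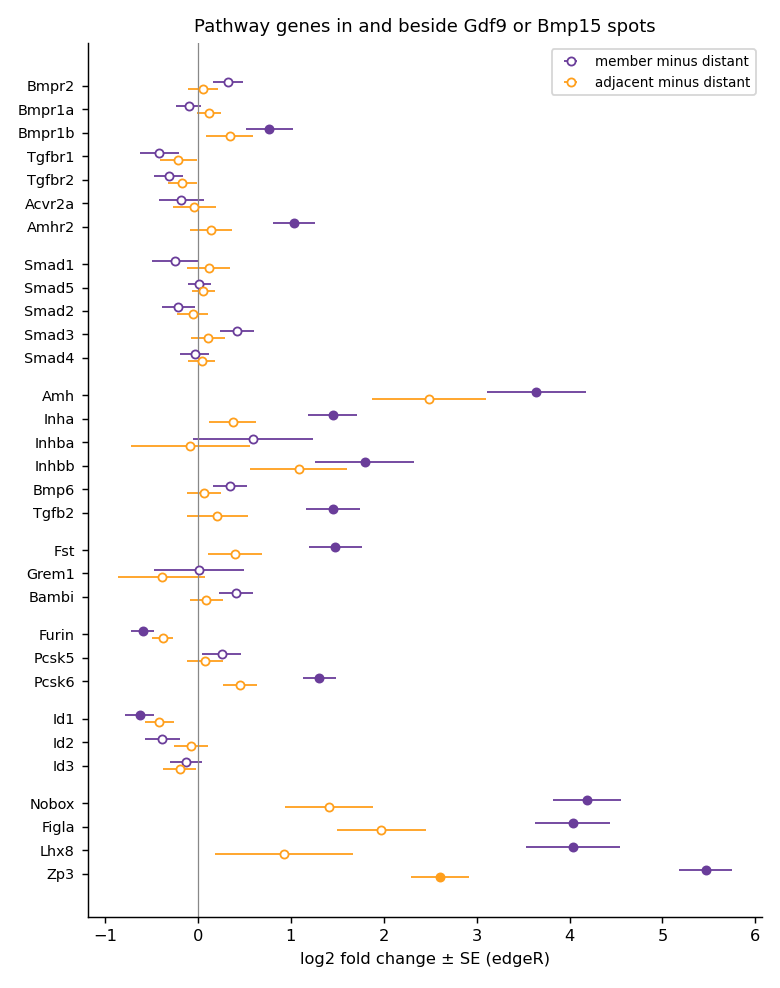
Log2 fold change ± SE of pathway genes in spots holding Gdf9 or Bmp15 (purple) and in adjacent spots (orange), each against distant spots of the same sections (edgeR, 6 sections), with filled points for genes that passed the threshold. Amh, Inha, Fst, Pcsk6 and the oocyte genes are among those filled in purple, and of the genes drawn only Zp3 is filled in orange.

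Genes downstream of the family were called in both directions, beside 10.3% higher and 10.2% lower of all genes. Of 5 tested immediate targets of Smads, Id1 was lower in 6 of 6 sections (−0.63 ± 0.16, adjusted p = 0.00711) and 4 did not pass, Id2 at −0.38 ± 0.19 and Id3 at −0.13 ± 0.18 among them. After thinning Id1 did not pass (−0.46, adjusted p = 0.146). Id1 is also expressed in endothelium, whose markers were lower in 5 of 8. The cumulus expansion genes Has2, Ptgs2, Ptx3 and Tnfaip6, which GDF9 raises before ovulation, did not pass the filter on low counts: over all zones and sections Has2 reached 0.418 CPM, Ptgs2 and Ptx3 3.90 CPM, and Tnfaip6 10.5 CPM, in distant spots of young section 1. Of 16 granulosa genes that oocyte factors are known to promote, 5 were higher and 2 lower. Npr2, the receptor that keeps the oocyte in arrest, rose by 0.84 ± 0.27 (adjusted p = 0.0326), Slc38a3, an amino acid transporter, by 0.74 ± 0.20 (adjusted p = 0.00999) and Ldha, of glycolysis, by 0.49 ± 0.16 (adjusted p = 0.0335), beside Amh and Fst.

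Fdps (−0.97 ± 0.22, adjusted p = 0.00253) and Ebp (−0.63 ± 0.19, adjusted p = 0.0200), both of cholesterol synthesis, were lower, against the direction in the list's name. The calls of Npr2, Slc38a3, Ldha and Ebp ended without 1 or more of young sections 1 to 4 or aged sections 2 and 3 (adjusted p up to 0.165, 0.0694, 0.126 and 0.0862), among them young section 1 for each. Of 5 genes that oocyte factors restrain, Star and Cyp11a1, of steroid synthesis, were lower (−1.57 ± 0.29, adjusted p = 0.000529, and −1.27 ± 0.24, adjusted p = 0.000682), beside 10.2% of all genes. Both are luteal markers too, and both were lower in 5 of 6 sections. Kitl, kit ligand, stood at 0.17 ± 0.22 (adjusted p = 0.640).

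Of 7 tested transcription factors of the oocyte 5 were higher in holding spots, beside 10.3% of all genes. Nobox stood at 31.0, 30.3, 0 and 35.0 CPM in young sections 1 to 4 and at 15.8 and 16.4 CPM in aged sections 2 and 3, against at most 2.82 CPM in distant spots (4.19 ± 0.37, adjusted p = 1.89e-08). Figla rose by 4.03 ± 0.40, Lhx8 by 4.04 ± 0.51, Pou5f1 by 3.80 ± 0.36 and Sohlh1 by 2.60 ± 0.40 (adjusted p = 5.79e-05 or lower for each). Lhx8 was higher in 6 of 6 sections. In young section 3 this rests on very few UMIs, at 0.206 CPM over the whole section of 9702600 UMIs. The 6 holding spots of that section listed Nobox, Figla, Pou5f1 and Sohlh1 at 0. Taf4b (0.86 ± 0.31, adjusted p = 0.0510) and Foxo3 (0.25 ± 0.20) did not pass.

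In the spots next to them, no gene of the pathway lists passed in edgeR as fitted here. Of all genes 0.75% were called between adjacent and distant spots, 0.577% higher and 0.173% lower. Bmpr2 stood at 0.06 ± 0.16, Bmpr1b at 0.34 ± 0.25 and Tgfbr1 at −0.21 ± 0.20, and the Smads at a median of 0.01. Amh came nearest among ligands, at 3.70, 2.02, 0 and 2.72 CPM in adjacent spots of young sections 1 to 4 and 0 and 11.7 CPM in aged sections 2 and 3 (2.48 ± 0.61, adjusted p = 0.0659). The adjacent spots of aged section 3 held 256245 UMIs in all, so that its Amh level rests on few Amh UMIs. Amh passed in DESeq2 (2.70, adjusted p = 0.00755) and with no low-count filter (adjusted p = 0.00891), Figla likewise (adjusted p = 0.0478 and 0.0055), and Inhbb after thinning (1.49, adjusted p = 0.0457) and with no filter (adjusted p = 1.8e-07). The fit with no filter called more genes in general. With 4 UMIs needed Inhbb stood at −0.037 (adjusted p = 0.992). It passed in no fit that left out a section or capture area 3 (adjusted p = 0.115 or higher). Inha was at 0.37 ± 0.25 and Fst at 0.40 ± 0.29.

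Oocyte genes were also read higher in adjacent spots, which held no UMI of the pair. Whether this RNA came from oocytes in holding spots or in the adjacent spots themselves was not tested. Of 21 oocyte markers 14 were higher (median 2.24, against −0.01 for all genes), beside 0.577% of all genes. Zp3, a zona pellucida gene, stood at 38.1, 20.2, 12.4 and 83.0 CPM in adjacent spots of young sections 1 to 4 and at 16.8 and 50.7 CPM in aged sections 2 and 3, against 1.23 to 11.1 CPM in distant spots (2.61 ± 0.31, adjusted p = 4.81e-05). In holding spots Zp3 reached 68.5 to 527 CPM. Genes were ranked among those called with at least 10 CPM on average over the zones, holding spots included. The 5 most raised in adjacent spots were Ninj2 (3.26), Gm13084 (3.15), Trim61 (3.10), Khdc3 (2.92) and Fbxw24 (2.92). In adjacent spots Ninj2 stood at 0 to 6.81 CPM and Trim61 at 0 to 7.81 CPM, so both met this level through holding spots. All 5 stood higher in holding than in adjacent spots in 6 of 6 sections, which the filter favours and which is no result. With 1 UMI enough to hold the pair, which changed the sections fitted, 3 of 13 called genes named for adjacent spots kept their calls. Khdc3 and Fbxw24 kept theirs when any section was left out but not with 1 UMI (1.45, adjusted p = 0.286, and 1.48, adjusted p = 0.189), Gm13084 lost its call each time, and Ninj2 and Trim61 lost it when young section 1 was missing, and likewise young section 4 and aged section 2, Trim61 also when young section 2 was.

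The other marker lists gave 2 higher genes and 1 lower gene in adjacent spots, beside 0.577% higher and 0.173% lower of all genes. Kctd14, a granulosa gene, was higher by 1.36 ± 0.26 (adjusted p = 0.0108), and Ptch1, the hedgehog receptor of theca, by 0.75 ± 0.17 (adjusted p = 0.0332). The call of Kctd14 ended without young section 1 or 4, and that of Ptch1 without young section 1, 2 or 4. The genes most reduced by the same rule were Tmem212 (−2.72), Ovgp1 (−2.02), the oviduct glycoprotein, Igkc (−1.52), an immunoglobulin chain, Spp1 (−1.47), osteopontin, and Adcyap1 (−1.2). Spp1 kept its call in all 6 fits without a section and Tmem212 in the 5 that tested it. Tmem212 did not pass in DESeq2 (−1.53, adjusted p = 0.775) or with distant spots 5 spacings away (−2.03, adjusted p = 0.0711). Its adjacent and distant levels were 0 and 0.583, 7.69 and 108, 6.18 and 16.2, and 0 and 0.711 CPM in young sections 1 to 4. In aged section 2 they were 0 and 4.86 CPM, and aged section 3 ran the other way (27.3 and 8.47 CPM). The other 3 genes lost their calls in 3 or 4 of 6 fits, young section 2 among them for each. In DESeq2 Ovgp1 (adjusted p = 0.525) and Adcyap1 (0.114) did not pass either. After thinning the calls of Ptch1 (adjusted p = 0.0708), Ninj2 (0.184), Adcyap1 (0.427), Trim61 (0.439) and Gm13084 (0.818) ended. With 4 UMIs needed, the calls of Gm13084 (adjusted p = 0.0517), Kctd14 (0.0635), Ovgp1 (0.0690), Trim61 (0.116) and Igkc (0.128) ended. At 5 spacings those of Ninj2 (adjusted p = 0.0769), Ptch1 (0.298) and Trim61 (0.308) ended as well.

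Whether the surroundings of the pair differ with age was tested as an interaction over 4 young and 2 aged sections. It called 10 of 12668 genes for adjacent and 9 for holding spots, none of them on a pathway list. Without capture area 3, which leaves a single aged section assumed to vary like the others, it called 8 and 4 of 12870 genes.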

How the data were processed

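Spots were counted by the authors with Space Ranger 1.2.1 against mm10, per the submitters' processing notes; for the gene annotation, the filters and the strand setting nothing is given in the sources used here. The deposited files give whole-number UMI counts per gene and spot, not normalized, and, as other values, the deposited array and pixel position of each spot. Of 4263 tissue spots, 72 had no column of counts. The young and aged section of an area were separated at the widest gap along the axis of the labelled side. Section and zone sums were tested with edgeR 4.0.16 (quasi-likelihood, TMM, filterByExpr, Benjamini-Hochberg, 0.05), with DESeq2 1.42.0 as an alternative, in R 4.3.3. Single values were tested with exact permutation tests (scipy 1.17.1), and the scripts were tested on simulated data. An adjusted p without a named test is edgeR's. Intervals are exact at 95% and cover counting error only. CPM of zones has 1 CPM added before logs only in the readings around spots.

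Genes were named by this rule: Gdf9 and Bmp15, the defining receptors and Smads, every gene of the pathway lists that passed in a contrast, the 10 genes most like each of the pair over spots, and, in the adjacent contrast, the 5 most raised and 5 most reduced called genes with at least 10 CPM on average; the last was later applied to holding spots too. Other genes given as values were chosen after theirs were seen. The members and the lists were chosen with earlier results of these data known. Sections of an area share a slide region by their labels, which pairs them. The correlation of their deviations over 11350 genes was 0.04, 0.23, −0.14 and 0.20 in areas 1 to 4. The labels call the 4 sections of an age biological replicates. A gene of the inhibitor list is not reported here and is left out of that list's counts.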

Additional observations from a re-analysis of the deposited data

Results flagged for a closer look

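Aged section 3 stood apart from the other 3 aged sections on 8 measures, its gap to the next section taking most of the group's range. Its Gdf9 level was 80.3 CPM, with the next aged section at 5.26 CPM, and its Bmp15 level 28.4 CPM, with the next at 1.26 CPM. Its shares of spots with a UMI were 30.0% for Gdf9, 19.1% for Bmp15 and 13.2% for both. After thinning they were 19.5, 8.72 and 6.67%. These measures are not independent of each other.

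Young section 3 stood apart from the other young sections with 9 Gdf9 UMIs per Bmp15 UMI, against 5.38 in the next, from 5 Bmp15 UMIs. Chance flags about 1 in 20 groups, and 9 of the 22 groups examined for a sample far from the rest had one.

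For 2 marker genes the difference between adjacent and distant spots differed between ages in edgeR's interaction test over 4 young and 2 aged sections. They are among the 10 of 12668 genes called in that test. Foxj1, a gene of ciliated cells, differed by 6.24 on the log2 scale (adjusted p = 0.0273). Aged section 3 carried this, with 35.1 CPM in adjacent and 2.82 CPM in distant spots, while aged section 2 held 0 and 0.872 CPM. In aged section 3 these zones held 256245 and 708750 UMIs in all, so that both levels rest on few Foxj1 UMIs. Without capture area 3, where 1 aged section remains, the difference was −1.27 (adjusted p = 0.981). Akr1c18, which breaks down progesterone, differed by 2.75 (adjusted p = 0.00143), and by 2.58 without capture area 3 (adjusted p = 0.0348). It was higher in adjacent than in distant spots in both aged sections and lower in all 4 young ones.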

How the results depend on the processing

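Neither Gdf9 nor Bmp15 passed between ages under any alternative, but directions turned. With 1 section or capture area left out, the log2 fold change ran from −2.96 to 0.79 for Gdf9 and from −2.91 to 1.66 for Bmp15. The differences in shares ran from −6.40 to 3.61 points (Bmp15) and −4.37 to 2.67 (both), and after thinning from −7.20 to 2.52 (Gdf9), −2.84 to 1.72 (Bmp15) and −1.04 to 1.81 (both). The log2 Gdf9 to Bmp15 ratio ran from −0.70 to 0.32, and the levels against the oocyte list from −0.91 to 0.14 (Gdf9) and −1.23 to 0.84 (Bmp15). The thinned shares at 2 or more UMIs differed by 0.447 (Gdf9) and 0.103 points (Bmp15). In spots of the pair alone, picked by the values compared, the levels against the oocyte list stood at 0.73 and 1.17, from which no direction is read, and less Tle6 and Kit, an alternative chosen after seeing the data like those without capture areas in these tests, Bmp15 stood at 0.16. DESeq2 called 6 genes.

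With the capture area as a replicate block, Bmp15 stood at −1.28. The block changed no other direction or call of the pair.

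The count of genes called in spots of the pair was 403 when 1 UMI was enough, 1133 with distant spots 5 spacings away, 1219 after thinning to 5000 UMIs, and 1348 to 2577 with a section or area left out, the lowest without young section 1. For adjacent spots it was 33, 296 when 4 UMIs were needed, 49 at 5 spacings, 412 with no low-count filter, and 37 to 143 with sections left out, the highest without capture area 3. Some settings also changed which sections had enough spots. Needing 4 UMIs dropped young section 3 and aged section 2, and 5 spacings dropped young section 1. With 1 UMI aged section 3 dropped out, aged sections 1 and 4 came in, and young section 1 kept 5 distant spots. The part of the sections in these counts was not tested.

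Named genes that turned direction did so as follows in spots of the pair. With 1 UMI: Tgfbr1 0.14, Smad5 −0.092, Kitl −0.065, Slc38a3 −0.061 and Spp1 0.13. With 4 UMIs: Smad2 0.018, Smad4 0.12 and Smad5 −0.13. At 5 spacings: Smad1 0.046 and Smad4 0.019. After thinning: Smad4 0.24, Smad5 −0.062 and Kitl −0.22. Unfiltered: Smad5 −0.036. With sections left out: Smad1 −0.47 to 0.040, Smad4 −0.084 to 0.032 and Smad5 −0.015 to 0.075.

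In adjacent spots, with 1 UMI: Tgfbr1 0.18, Smad1 −0.087, Smad4 −0.11, Smad5 −0.0042, Kitl −0.10, Kctd14 −0.026 and Spp1 0.59. With 4 UMIs: Smad1 −0.39, Smad2 0.073, Smad5 −0.15 and Inhbb −0.037. At 5 spacings: Tgfbr1 0.099, Smad2 0.017, Smad3 −0.021 and Kitl −0.11. After thinning: Bmpr2 −0.28, Smad2 0.12 and Smad4 −0.040. Unfiltered, Smad4 stood at −0.010, and in DESeq2 Smad9 at 0.031. With sections left out: Bmpr2 −0.071 to 0.16, Tgfbr1 −0.35 to 0.013, Smad1 −0.23 to 0.27, Smad2 −0.12 to 0.020, Smad4 −0.020 to 0.14, Smad9 −0.13 to 0.040 and Kitl −0.15 to 0.26. The cause of these changes was not tested.

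Readings of each gene around the other kept their direction under every alternative run. A correlation of the pair over sections, and its other pseudocount, were not run, since the sections formed 2 sets of 4. Bmp15 rested on 1 to 12 UMIs in 4 sections. The interaction with age without capture area 3 was added after seeing the data.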

Other observations

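Spots holding Gdf9 or Bmp15 also differed from distant spots in genes of other cell types. In spots holding the pair, 5 of 8 tested endothelial genes were lower than in distant spots (median log2 fold change −0.58), as were 3 of 5 immune genes and 3 of 5 oviduct epithelium genes, beside 10.2% of all genes, and none of these lists had a higher gene (edgeR, 6 sections, the fit across all genes). Of 8 theca genes 3 were higher and 1 lower, and of 8 smooth muscle and pericyte genes 2 were higher and 3 lower, beside 20.5% of all genes called in either direction. None of 9 stromal fibroblast genes passed (median −0.01). In adjacent spots 0 of 8 endothelial and 0 of 5 immune genes were called. Of 5 oviduct epithelium genes 1 was lower there, beside 0.173% of all genes. In whole sections no gene of any list passed between ages.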
